A study of Mus with 4 samples.

Results

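TBX3 ChIP-Seq signal was examined at 10 Wnt feedback and effector genes, Axin2, Nkd1, Notum, Apcdd1, Rnf43, Znrf3, Lgr5, Tcf7, Lef1 and Sp5, out of 21887 protein-coding genes of the mouse genome. The genes were listed by name for their place in Wnt signalling, and the selection rule sets no threshold on the score. All 10 were found in the annotation. TBX3 is a T-box transcription factor, known as a repressor, and the study asked which genes it occupies in hepatocytes. Mouse primary hepatocytes carried the construct pT2-SVNeo-EF1-eGFP-P2A-Tbx3-HA, so that TBX3 with an HA tag was overexpressed together with the green fluorescent protein eGFP. The construct was present in both groups. Per the study's methods, cells with this construct were selected in an expansion medium that contained EGF, HGF, TNFα and CHIR99021. CHIR99021 is a GSK3 inhibitor that activates Wnt signalling. The medium at the time of the ChIP harvest is not stated. Chromatin pulled down with an antibody against HA gave 2 TBX3 ChIP libraries, and the sheared chromatin before pull-down gave 2 Input libraries. The age and sex of the animals are not given in the labels, and hepatocytes with TBX3 at its natural level were not profiled. A track of DNA reads holds no transcript levels, so the cell type could not be checked against marker genes.

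Wnt proteins bind Frizzled and LRP receptors, which spares β-catenin from the destruction complex and lets it act with TCF factors on target genes. Several targets feed back on the pathway. Axin2 rebuilds the destruction complex, Nkd1 acts on Dishevelled, Notum removes the lipid that Wnt needs, and Rnf43 and Znrf3 take Frizzled off the cell surface. In the liver the pathway is most active in hepatocytes around the central vein, where Axin2, Lgr5, Rnf43 and Znrf3 are familiar target genes.

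The deposited values form 1 track for the whole series. Each value, called the score here, is the −log10 of a Poisson p-value that the program MACS2 gives to the ChIP reads over a base, given the number expected from Input. The track holds no value per library, so the scores carry no replicate error and none of the comparisons could be tested between replicates. The number of reads behind each score was inferred from the score itself. Where the expected number was at its genome-wide level of 2.43 reads, 5 reads gave a score of 1.42, 6 reads 1.90, 8 reads 3.02, 10 reads 4.31, 11 reads 5.01 and 12 reads 5.75. A score of 5 was thus first reached with 11 reads, and genes with equal scores often shared the same number of reads. Bases with few reads also score above 0, since 5 reads give 1.42 at that level, so signal is given at a score of at least 5, at a score of at least 3, and as a called region, which is a run of bases at or above 5, bridging gaps no wider than 30 bp, that spans 200 bp or more. Gaps of the same width are bridged in each run or stretch whose length is given, so a stretch at or above 3 or 5 can hold a few bases under that score. Gene positions are from RefSeq GRCm38.p6. The annotation used here lists no strand, so scores were read around both ends of each gene and the ends are named by their coordinate, lower or higher.

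Sp5 was the only one of the 10 genes that reached a score of 5 next to a gene end. Its highest score within 1 kb of an end was 5.75. Znrf3 followed at 4.20, and Lgr5 and Apcdd1 both stood at 3.55. Axin2, Nkd1 and Lef1 each scored 1.90, and Notum, Rnf43 and Tcf7 each scored 1.42. These last 6 genes lay below the median of all protein-coding genes, which was 2.44, and the median of the 10 was 1.90. Sp5 alone lay above the 95th percentile of all genes at 4.31. Within 500 bp of an end, by contrast, both medians were 1.90. Within 2 kb the median of the 10 was 2.99, beside 2.62 for all genes. A score of at least 5 was present in 1 of the 10 genes within 500 bp, within 1 kb and within 2 kb of an end. Among all protein-coding genes the shares were 2.56%, 3.60% and 5.19%. At a score of at least 3 within 1 kb, the count was 4 of 10, made up of Sp5, Znrf3, Lgr5 and Apcdd1, beside 29.1% of all genes. For a list of 10 genes, both counts are near these shares.

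**Figure D1:**
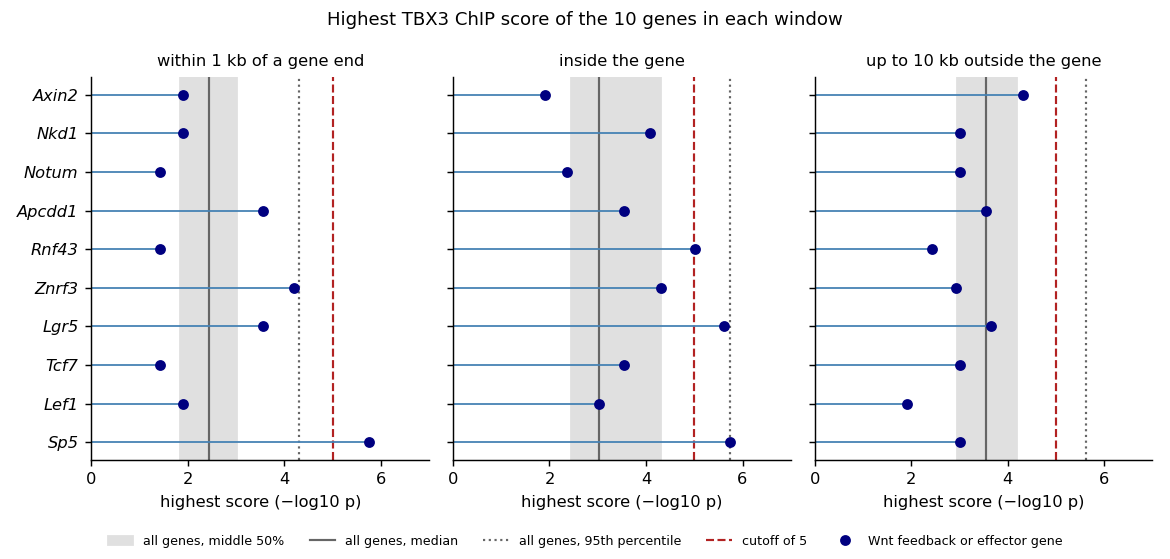
Highest score (−log10 p) of each of the 10 genes within 1 kb of a gene end, inside the gene and up to 10 kb outside it, with the median, middle 50% and 95th percentile of all protein-coding genes and the cutoff of 5. Sp5 passes the cutoff at its end, Sp5, Lgr5 and Rnf43 pass it inside the gene, and no gene passes it in the 10 kb outside.

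Sp5 encodes a zinc-finger transcription factor of the Sp family that is switched on by β-catenin and acts on other Wnt targets. The gene (gene 64406) spans 70474923 to 70477726 on chromosome 2, a length of 2804 bp. Its strongest bases lay inside the gene at its lower end. A joined stretch at or above 3 began 1 bp inside that end and ran from 70474924 to 70475276, over 353 bp. Of these, 321 bp scored at least 3, the longest unbroken piece was 199 bp, and the dips between the pieces went down to 1.90. The score peaked at 70475009, 86 bp from the end, with 12 ChIP reads over 2.43 expected, which is 4.93 times the expected level. Bases with a score of at least 5 formed 2 runs of 92 and 51 bp, of which 82 and 51 bp themselves scored 5 or more, and both runs reached the same 12 reads. Neither run reached the 200 bp of a called region, and the gap between them was wider than the joined distance. A separate stretch of 41 bp at or above 3 with 8 reads lay 331 bp outside the same end. The higher end scored only 1.90.

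Among protein-coding genes, 2.12% had a score as high as Sp5 within 1 kb of an end (465 genes, Sp5 included, 95% Wilson interval 1.94 to 2.32%, for counting only). The share was 1.74% on chromosome 2 and 2.14% among genes of a length within 2 times that of Sp5. Inside the gene, 6.41% of all protein-coding genes scored as high, 7.58% of those on chromosome 2 and 1.13% of the genes of like length. In the inferred reads, isolated islands of 2 reads numbered 961920 and those of 1 read 37990, and whether both mates of a pair were counted as separate reads was not tested. With reads and expected level divided by 2, as if each pair were counted once, the Sp5 score was 3.56. With the expected level raised to the depth of chromosome 2, which was 1.09 times the autosome median, it was 5.34.

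**Figure D2:**
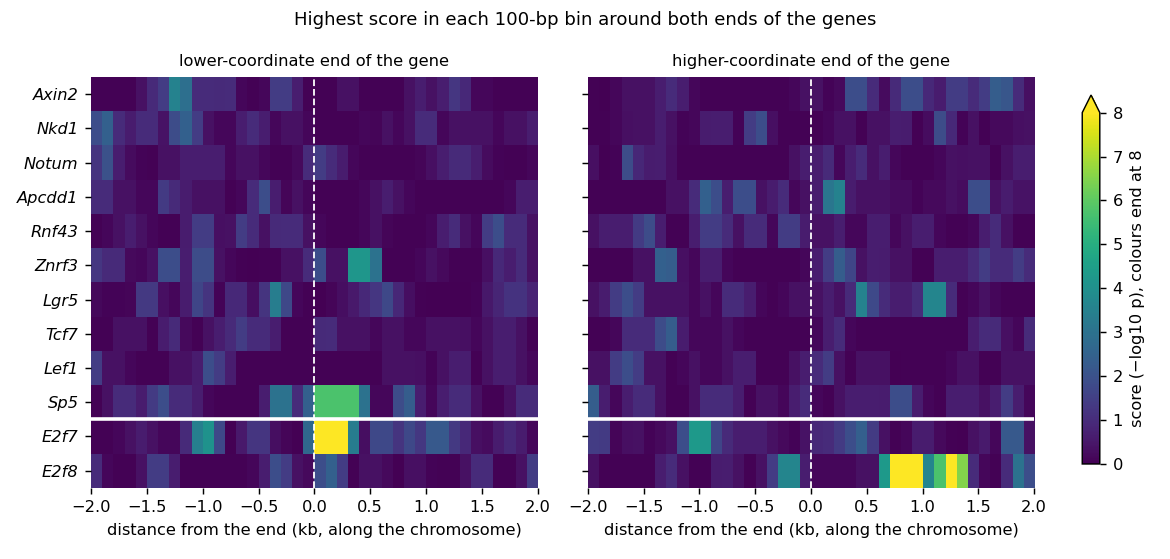
Highest score in each 100-bp bin within 2 kb of the lower-coordinate end and of the higher-coordinate end of the 10 genes, with E2f7 and E2f8 under the white line, in colours from 0 to 8 (−log10 p). The Sp5 signal fills the bins just inside its lower end, Znrf3 has a weaker patch near its lower end, and the E2f7 and E2f8 signals pass the end of the colour scale.

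The 3 genes that act at the receptor all had their highest score inside the gene, more than 1 kb from an end. Lgr5, a receptor for R-spondins, spans 115450314 to 115587780 on chromosome 10 (gene 14160). Inside it the score reached 5.61 at 115456064, 5750 bp from the lower end, with 12 reads over 2.50 expected, and the run at or above 5 was 6 bp long. Its ends were lower, at 3.40 for the lower and 3.55 for the higher end, with 9 reads at each. Chromosome 10 carried 1.41 times the autosome median of inferred ChIP reads, the highest depth of the 19 autosomes and X. Input was high there too, above the genome-wide level at 72.2% of bases, beside at most 48.8% on any other chromosome. The depth used to raise expected levels is that of the inferred ChIP reads. A score as high inside the gene was found in 7.30% of all protein-coding genes, in 18.8% of genes of a length within 2 times, and in 20.4% of the genes of chromosome 10. With the expected level raised to the depth of this chromosome, the Lgr5 score inside the gene was 4.21. Its score within 1 kb of an end was then 2.54. Near an end, 16.4% of all protein-coding genes and 34.7% of those on chromosome 10 scored as high as the 3.55 of Lgr5.

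Rnf43 and Znrf3 are sister ubiquitin ligases of the cell membrane. Rnf43 (gene 207742, chromosome 11, 87663087 to 87735539) had 11 reads over 2.43 expected at 87702486, a score of 5.01, in a run of 6 bp at or above 5. This base lies 33053 bp from the nearer end and also within the long noncoding RNA gene 1110028F11Rik. A score as high inside the gene was found in 13.9% of all protein-coding genes and in 23.9% of genes of like length. The score fell under 5 with the expected level raised to chromosome depth, at 4.91, and with each pair counted once, at 2.79. A weaker stretch of 101 bp with 10 reads and a score of 4.31 lay 14468 bp from the lower end. Neither end of Rnf43 rose over 1.42, which is 5 reads. Znrf3 (gene 407821, chromosome 11, 5276329 to 5444847) had, unlike Rnf43, a stretch at or above 3 near its lower end, and it had no base at 5. Its score was 4.20 at 5276735, 406 bp inside the lower end, from 10 reads over 2.50 expected, in a stretch of 48 bp at or above 3 with a second one of 26 bp close by. Of all protein-coding genes, 7.96% had a score as high within 1 kb of an end. Deeper inside Znrf3 the score was slightly higher, at 4.31, also from 10 reads, a value that 73.2% of genes of like length also reached.

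**Figure D3:**
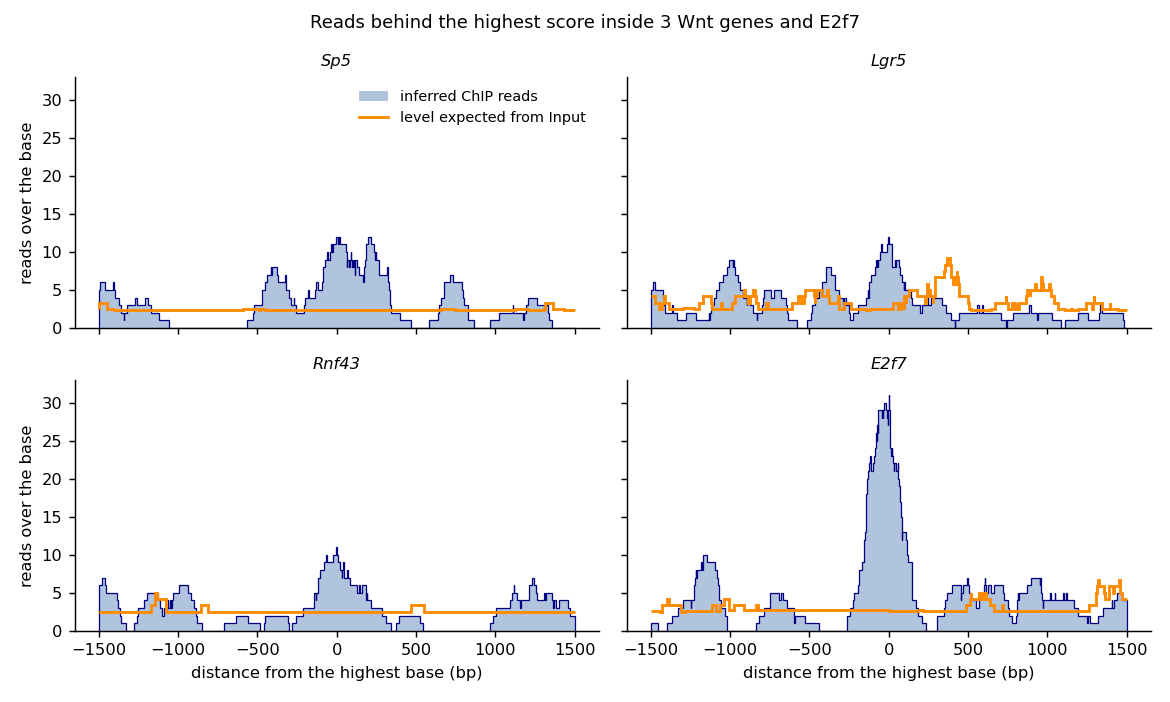
Inferred ChIP reads over each base (filled) and the expected level (line) within 1500 bp of the highest base inside Sp5, Lgr5, Rnf43 and E2f7, on a common axis of reads. The expected level comes from Input, with the genome-wide level as its floor. Sp5 and Lgr5 reach 12 reads and Rnf43 reaches 11, while E2f7 reaches 31.

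Of the inhibitors, Axin2, Nkd1 and Notum scored under the median of all genes within 1 kb of their ends, and Apcdd1 scored above it. Within 2 kb of an end Axin2 reached 3.55, above the all-gene median of 2.62. This came from 9 reads between 1 kb and 2 kb outside its lower end. Axin2 (gene 12006, chromosome 11, 108917828 to 108950783), the destruction complex scaffold, had no base inside the gene above 1.90, which is 6 reads, and 86.5% of all protein-coding genes scored as high inside the gene. Its flanks were higher, with 10 reads and a score of 4.31 at 5028 bp outside the lower end and 10 reads and 4.20 at 4982 bp outside the higher end. A score of 4.31 or more in the 10 kb outside a gene was found in 23.4% of genes. Nkd1 (gene 93960, chromosome 8, 88521342 to 88594887) scored 1.90 near its ends and 4.07 inside, with 10 reads over 2.59 expected at 30924 bp from the nearer end. In its flanks 3.02 was reached at 3 places, 2 of them within the long noncoding RNA gene Gm35076 and 1 outside annotated genes beyond the other end.

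Notum (gene 77583, chromosome 11, 120653788 to 120661193), the secreted enzyme that strips the lipid from Wnt, was low throughout. Its scores were 1.42 near an end, 2.37 inside the gene and 3.02 in the 10 kb outside. Apcdd1 (gene 494504, chromosome 18, 62922327 to 62953815), a membrane protein that binds Wnt and blocks its action, scored 3.55 near its higher end, 250 bp outside it, with 9 reads over 2.50 expected. Within 1 kb of an end, 16.4% of all genes scored as high. It scored 3.55 inside the gene as well, which 47.0% of all genes matched. Beyond the 10 kb limit, 13716 bp outside its lower end, Apcdd1 had a base with 14 reads and a score of 7.15, in a run of 37 bp at or above 5. This was higher than any score in the windows of the 10 genes, and no annotated gene covered it. Within 20 kb outside the gene, 17.8% of all protein-coding genes reached a score of 5, as 1 of the 10 did.

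Tcf7 and Lef1 encode members of the TCF family, through which β-catenin reaches DNA, and both are targets of the pathway in several tissues. Tcf7 (gene 21414, chromosome 11, 52246527 to 52283383) scored 1.42 near its ends, from 5 reads, and 3.55 inside the gene, from 9 reads. Its highest flank score, 3.02, was reached inside the neighbouring gene Skp1 beyond the lower end and also outside annotated genes beyond the higher end. Lef1 (gene 16842, chromosome 3, 131110297 to 131224357) scored 1.90 near its ends and 1.90 in the 10 kb outside, and 97.9% of all genes had a flank score as high. One stretch of 17 bp at or above 3 was present inside Lef1, with 8 reads at 23093 bp from the nearer end, although the gene is 114061 bp long. Chromosome 3 was among the shallow ones, at 0.806 times the autosome median.

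Inside the gene, 3 of the 10 genes held a base with a score of at least 5, Sp5, Lgr5 and Rnf43, beside 13.9% of all protein-coding genes. The count was 1, Sp5, with the expected level raised to chromosome depth and 0 with each pair counted once. The share of all genes was not computed under either setting. At a score of at least 3 the count was 8 of 10 beside 61.9%, and Axin2 and Notum were the 2 genes without. The median of the 10 genes inside the gene was 3.81 and that of all genes was 3.02. Longer genes have more bases on which a high score can fall. Lgr5, Znrf3 and Lef1 are each over 100 kb, and 33.4 to 43.6% of the genes of a length within 2 times theirs reached 5 inside the gene. Sp5, by contrast, is short, and 2.46% of its length class did. The number of stretches at or above 3 per 10 kb of gene was 7.13 in Sp5, 1.84 in Znrf3, 1.75 in Lgr5, 0.0877 in Lef1 and 0 in Axin2 and Notum. The median of all genes was 0.520 and that of the genes of chromosome 10, where Lgr5 lies, was 1.52. The rate of Sp5 rests on 2 stretches, one of them 2 bp long.

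In the 10 kb outside the gene, 0 of the 10 genes reached 5, beside 10.3% of all genes, and 7 of 10 reached 3, beside 74.8%. The genes under 3 were Rnf43, Znrf3 and Lef1. The highest flank score of Rnf43, 2.44, was reached within the neighbouring gene Hsf5 on one side and within Supt4a on the other. The median of the 10 was 3.02 and that of all genes 3.55.

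No called region touched any window of the 10 genes. Called regions were rare in all genes, touching 0.311% within 1 kb of an end, 0.347% inside the gene and 0.480% in the 10 kb outside, from 125 regions over the 19 autosomes, X and Y. The region closest to any of the genes was 61.2 kb from Axin2, at a summit of 13.30 within the annotated gene Gm36876. For the others the distance was between 330 kb for Tcf7 and 61317 kb for Lef1. On chromosome 10, the called region nearest to Lgr5 was the one at E2f7, 4705 kb away.

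E2f7 and E2f8, cell cycle repressors and the targets the study followed up, give a yardstick from the same track. Both lie above the median called region, since the summits of the 125 regions ran from 6.51 to 77.01 with a median of 12.60. Within 1 kb of an end the score was 22.79 at E2f7, from 31 reads over 2.69 expected, and 15.53 at E2f8, from 23 reads over 2.43 expected. Sp5, with 12 reads over 2.43 expected, had fewer reads than either. With the expected level raised to chromosome depth, the scores were 19.73 at E2f7 and 5.34 at Sp5. This setting acts only on chromosomes deeper than the autosome median. Chromosome 7, where E2f8 lies, was at 0.903 times that median, so the 15.53 at E2f8 could not change. With each pair counted once, the scores within 1 kb of an end were 11.83 at E2f7, 8.14 at E2f8 and 3.56 at Sp5. Inside the gene, Lgr5 then had 3.49 and Rnf43 2.79, beside 11.83 inside E2f7 and 2.79 inside E2f8, whose strongest base lies outside the gene. The E2f7 stretch at or above 3 was unbroken over 316 bp, while the longest unbroken piece at Sp5 was 199 bp.

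The mean of the inferred reads over all bases within 1 kb of both ends put the genes in an order that differed in part from that of their highest scores. At Sp5 the mean was 2.80 reads and the expected level 2.54, a ratio of 1.10 (95% Poisson interval 0.768 to 1.50 from 37 read pairs, counting error only). The intervals take the reads as mates of pairs, which was not tested. Across all protein-coding genes the median ratio was 0.592 and the 95th percentile 0.952, and 1.74% of genes had a ratio as high as Sp5. A ratio under 1 was therefore usual in this track. The expected level is the highest of the genome-wide level and the Input levels, so it never lies under 2.43 reads. Mean inferred reads per autosome ran from 1.21 on chromosome 4 to 2.45 on chromosome 10. A ratio under 1 thus does not mean fewer ChIP reads than Input reads. E2f7 had a ratio of 1.43 (1.09 to 1.85) and E2f8 of 1.08 (0.760 to 1.46), and the intervals of Sp5, E2f7 and E2f8 overlapped. Lgr5 had a ratio of 0.769 and Apcdd1 of 0.738, with intervals that overlapped that of Sp5. Znrf3, second by its highest base, had a ratio of 0.584, close to the median. Lef1 had the lowest ratio of the 10, 0.338 (0.162 to 0.582), and the intervals of Nkd1, Notum, Tcf7 and Lef1 lay wholly under that of Sp5. Within the rest of the order the intervals of neighbours overlapped. The median ratio of the 10 genes was 0.548.

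**Figure D4:**
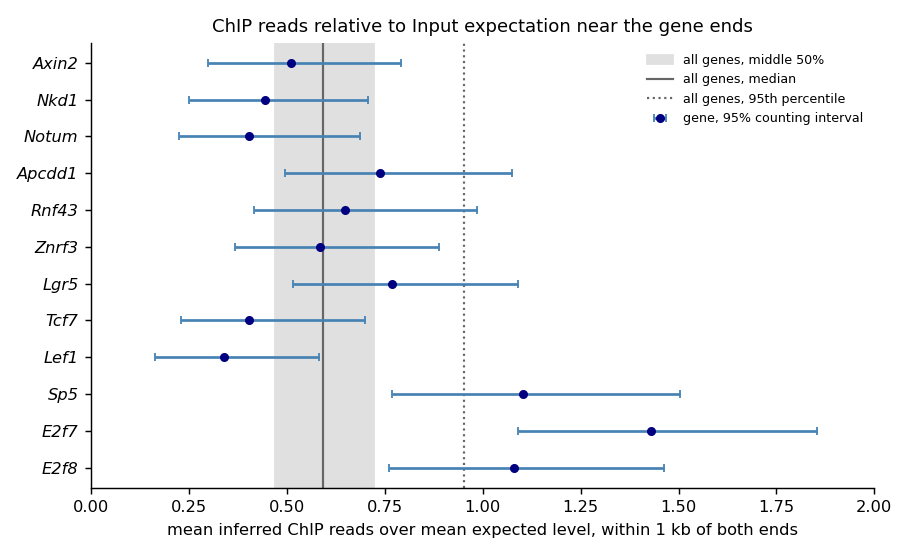
Mean inferred ChIP reads over the mean expected level, within 1 kb of both ends of each gene. The expected level comes from Input, with the genome-wide level as its floor. Bars are 95% Poisson intervals that take the reads as mates of pairs, which was not tested. The median, middle 50% and 95th percentile of all protein-coding genes are drawn. Sp5, E2f7 and E2f8 lie to the right of the 95th percentile, and the other 9 Wnt genes lie to its left.

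The other parts of the Wnt pathway were read from a list of 86 genes grouped by role, all of which were found in the annotation. Within 1 kb of an end, 3 of the 86 reached a score of 5, beside the 3.60% of all genes. They were Tle1, a corepressor that binds TCF factors, at 7.31, Fzd4, a Frizzled receptor, at 5.01, and Tnks2, a tankyrase that marks Axin for breakdown, at 5.01. The count was 2 with the expected level raised to chromosome depth and 0 with each pair counted once. The share of all genes was not computed under either setting. The median of the 86 genes was 1.90, the same value as for the 10 feedback and effector genes. None of the 23 ligands and agonists reached 5 near an end, where the highest was Wnt8b at 3.65, and none of the 12 secreted or membrane inhibitors did, where the highest was Frzb at 4.18. Of the 17 receptors, the 18 relay proteins of the cytoplasm and the 14 nuclear factors, 1 in each group did. Of the 2 ligand secretion genes, the higher was Wls at 1.90. Inside the gene, 16 of the 86 reached 5, or 18.6%, beside 13.9% of all genes. Longer genes reach 5 more often, and no share among genes of like length is given for the 86. In the 10 kb outside the gene, 6 of the 86 did, or 6.98%, beside 10.3%. A called region touched the windows of 1 of the 86 genes, beside 0.480% of all genes for the flank, where it lay. This was Dvl2, with a score of 10.54. The region spanned 69991315 to 69991530 on chromosome 11, and the lower end of Dvl2 is at 70000592. Dvl2 itself scored 1.37 within 1 kb of an end and 2.44 inside the gene. Dvl2 was named after its value was seen.

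**Figure D5:**
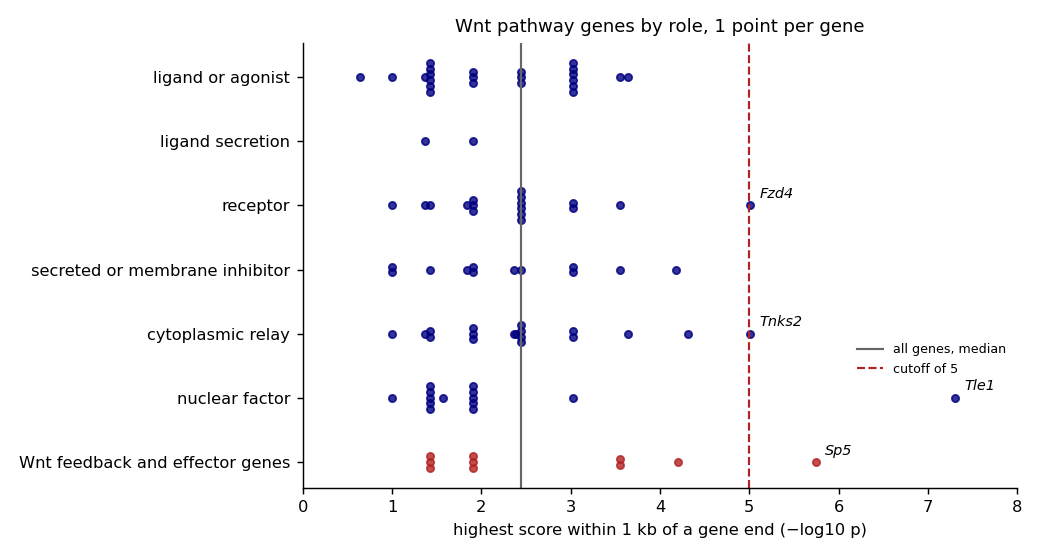
Highest score (−log10 p) within 1 kb of a gene end for 86 Wnt pathway genes by role, and for the 10 feedback and effector genes in the bottom row, 1 point per gene, with the median of all protein-coding genes and the cutoff of 5. Tle1, Fzd4, Tnks2 and Sp5 reach the cutoff, and most other points lie at the few values that whole numbers of reads give.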

How the data were processed

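Primary hepatocytes overexpressing HA-tagged TBX3 gave 2 TBX3 ChIP and 2 Input libraries. Per the labels and the study's methods, the authors mapped the reads to mm10 with Bowtie2, sorted them with SAMtools and used MACS2. Versions are not given in the sources used here. They deposited 1 track of −log10 p-values for the series, and which libraries entered it is not stated. There were 0 other columns of per-sample values, and the depth per library is unknown.

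The 10 genes, the pathway list and the cutoffs were chosen with earlier results of these data known. The highest score in each window was read for every protein-coding gene, and shares of genes carry 95% Wilson intervals. Genes are not replicates, so no test was run. Reads and expected levels were inferred as the whole read number and expected level that give each score, with reads extended to 150 bp. The expected level was the highest of the genome-wide level and the Input levels over the extended read and windows of 1000 and 10000 bp. A match was found for 99.96% of the bases at or above 5, and the inferred reads sum to 30107121. Pairs were counted once by dividing reads, rounded down, and expected level by 2. The steps were tested on simulated data. Named genes are all 10 members, E2f7, E2f8, other genes at a member's highest flank base and pathway genes reaching 5 near an end. Where a role had none, its highest gene is named, and Dvl2, 1110028F11Rik, Gm36876 and Gm2788 were chosen after their values were seen. No sequence is printed, because no genome sequence was used here. Scripts ran in Python 3.11.15 with scipy 1.17.1, pandas 2.3.3, numpy 2.4.6, matplotlib 3.10.9 and numba 0.67.0.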

Additional observations from a re-analysis of the deposited data

How the results depend on the processing

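No paired analysis was possible because the track gives no value per library, which also means that no replicate could be dropped. The start-site window and the T-box motif searches were not run, since no strand or sequence was used here. Cutoffs, called regions and wider windows move counts by construction. Pairs counted once and chromosome depth lowered member scores while the cutoff stayed at 5, so counts could fall but not rise. Shares of all genes were not computed under either of these settings. The count within 1 kb of an end, 1 of 10, was 4 when the cutoff was 3, and 0 when it was 10, by called regions or with read pairs counted once. It remained 1 with windows of 500 bp and 2 kb and with the expected level raised to chromosome depth. The count inside the gene, 3 of 10, was 8 when the cutoff was 3, and 0 when it was 10 or by called regions. It was 0 with pairs counted once and 1 with chromosome depth, both chosen after seeing the data, as were these settings for the flank and pathway counts. The flank count, 0 of 10, was 7 when the cutoff was 3 and 1, from Apcdd1, when the flank was 20 kb. The pathway count, 3 of 86, was 23 when the cutoff was 3, beside 29.1% of all protein-coding genes at that cutoff. It was 0 when the cutoff was 10, by called regions or with pairs counted once, and 2 with chromosome depth. No share of all genes is given for a cutoff of 10. The median near an end, 1.90, was 2.99 with 2 kb windows, where that of all genes was 2.62. The median of the 10 was 0.323 with the mean score and 1.45 with pairs counted once. Of the 30 highest scores of single genes, 30 fell by more than 0.01 with pairs counted once and 17 did with chromosome depth. The depth setting acts only on chromosomes deeper than the autosome median, so the scores of Nkd1, Apcdd1 and Lef1 could not change under it. Depth limits these values, since no score of 5 was reached with fewer than 11 reads and genes that differ by 1 read lie within counting error.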
